A study of Mus musculus with 32 samples.

Results

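The 10 genes described here are markers of neural progenitor cells, namely Sox1, Sox2, Sox3, Sox21, Sox11, Nes, Vim, Prom1, Fabp7 and Msi1. They were found by their Ensembl identifiers among the 48576 identifiers of the deposited expression files, and all 10 were present and above the minimum level in every fit. The files hold FPKM, that is sequenced fragments scaled to exon length and to the mapped fragments of the library, so that levels of different genes can be compared per length. RNA was taken from the forebrain (Fb) and the midbrain (Mb) of mouse embryos at E9.5 on the B6C3F1 background, when the cranial neural tube closes. The 32 libraries comprised, for either tissue, 6 of WT, 4 of TKO_Ex, 3 of DKO_Ex and 3 of DKO_CD. TKO_Ex embryos lacked Cdh6, Cdh8 and Cdh11, all type II cadherins, which are adhesion molecules of the cell membrane, and showed exencephaly, an open cranial neural tube. DKO_Ex embryos lacked Cdh8 and Cdh11 and also showed exencephaly. DKO_CD embryos had an elongated Mb, called a cranial defect. They are named Cdh8/11 knockouts in the methods of the study, whereas their labels give Cdh6 and Cdh8. The mutations are short frameshift deletions in the exons with the start codons, made by genome editing in B6C3F1 zygotes. The mutants came from matings of mice heterozygous for all 3 genes and the WT embryos from separate WT matings, so that litter and genotype cannot be told apart.

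The wall of the early neural tube is a single layer of dividing progenitor cells, the neuroepithelium, from which the neurons and most glia of the brain arise. Transcription factors of the SoxB1 family (Sox1, Sox2 and Sox3) hold these cells in the progenitor state, whereas the related Sox21 counteracts them and Sox11, of the SoxC family, is linked to the start of neuronal differentiation. The cells are long and span the wall, with the intermediate filament proteins nestin (Nes) and vimentin (Vim), and carry prominin (Prom1) on membrane protrusions of their apical surface. The fatty acid binding protein Fabp7 marks progenitors that turn into radial glia, and Msi1 is an RNA-binding protein that controls translation in neural stem cells.

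In the GENCODE M21 annotation of GRCm38 the SoxB1 genes lie at chr8:12395295-12400126 (Sox1, ENSMUSG00000096014), chr3:34650405-34652461 (Sox2, ENSMUSG00000074637) and chrX:60891366-60893430 (Sox3, ENSMUSG00000045179). The other Sox genes lie at chr14:118233232-118237030 (Sox21, ENSMUSG00000061517) and chr12:27334264-27342574 (Sox11, ENSMUSG00000063632). The remaining members lie at chr3:87971078-87980451 (Nes, ENSMUSG00000004891), chr2:13573927-13582826 (Vim, ENSMUSG00000026728), chr5:43993620-44102032 (Prom1, ENSMUSG00000029086), chr10:57784881-57788450 (Fabp7, ENSMUSG00000019874) and chr5:115429599-115455698 (Msi1, ENSMUSG00000054256). Sox1 thus shares chromosome 8 with Cdh8 and Cdh11, although it lies far from both. Sox1 and Sox2 are overlapped on the same strand by the non-coding genes Sox1ot and Sox2ot, whose fragments can be hard to separate from theirs. Sox1ot was at 0.264 to 1.30 FPKM and Sox2ot at 1.21 to 7.18 FPKM over the 32 libraries, below every level of Sox1 and Sox2. The libraries were directional, and genes on the opposite strand overlap Sox21, Prom1 and Msi1.

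The bases before the start of Fabp7, Nes and Sox21 are shown because these genes were higher in the Mb than in the Fb of WT embryos, and those of Sox2 because its difference between the tissues did not pass the test. They were taken from RefSeq (GRCm38.p6), which had such an entry for 8 of the 10 members and none for Sox3 and Msi1. Each is written 5′ to 3′ on the strand of its gene, from 250 bases before the RefSeq start to the start or to the first base of an annotated exon. Capitals mark a SOX motif (ACAAAG or ACAATG), a motif of the Notch effector RBPJ (TGGGAA), an octamer bound by POU factors (ATGCAAAT) or a CCAAT box (CCAAT), each on either strand. The places are chr10:57784673-57784880 on the plus strand for Fabp7, chr3:87970843-87971077 on the plus strand for Nes, chr14:118237031-118237280 on the minus strand for Sox21 and chr3:34649745-34649994 on the plus strand for Sox2.
Fabp7: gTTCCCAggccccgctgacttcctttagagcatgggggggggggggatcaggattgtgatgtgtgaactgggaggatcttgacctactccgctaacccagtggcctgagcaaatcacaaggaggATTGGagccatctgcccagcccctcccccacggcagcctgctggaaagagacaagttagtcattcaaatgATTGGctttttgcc
Nes: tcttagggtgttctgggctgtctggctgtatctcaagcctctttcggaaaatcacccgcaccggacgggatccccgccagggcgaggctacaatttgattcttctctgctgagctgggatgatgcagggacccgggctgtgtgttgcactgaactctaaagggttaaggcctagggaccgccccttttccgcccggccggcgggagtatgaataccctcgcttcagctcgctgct
Sox21: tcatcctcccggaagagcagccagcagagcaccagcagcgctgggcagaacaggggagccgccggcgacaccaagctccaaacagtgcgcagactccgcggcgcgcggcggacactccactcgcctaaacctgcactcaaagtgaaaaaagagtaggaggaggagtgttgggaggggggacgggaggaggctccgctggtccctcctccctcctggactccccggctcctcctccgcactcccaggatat
Sox2: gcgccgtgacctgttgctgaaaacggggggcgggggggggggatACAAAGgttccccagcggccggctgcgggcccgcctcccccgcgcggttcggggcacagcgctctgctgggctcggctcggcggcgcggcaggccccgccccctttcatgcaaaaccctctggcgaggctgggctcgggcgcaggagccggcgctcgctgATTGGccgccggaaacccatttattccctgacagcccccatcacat
The Fabp7 stretch held 2 CCAAT boxes and 1 RBPJ motif, and the Sox2 stretch held 1 SOX motif and 1 CCAAT box. None of these letters stood in the stretches of Nes and Sox21. Among 32851 RefSeq promoters, 33.8% held CCAAT, 21.6% TGGGAA, 16.5% ACAAAG, 10.7% ACAATG and 1.60% ATGCAAAT within the same 250 bases.

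The libraries held an estimated 1.96 to 3.25 M fragments (median 2.62 M), read from how finely the lowest FPKM values were stepped. At this depth the SoxB1 genes rested on 193 to 987 fragments per library, Sox11 on 781 to 1657 and Sox21, the lowest of these Sox genes, on 61 to 435. The fragments of the remaining members were not estimated. Fabp7 had the shortest exons (1250 bp), so that at a like FPKM it rests on fewer fragments than Sox21 (3799 bp). The summed forebrain and midbrain genes parted the tissues as labelled. The summed FPKM of 8 forebrain genes was 129 to 284 in the Fb libraries and 0.969 to 17.2 in the Mb libraries, and that of 6 midbrain and isthmus genes was 4.26 to 16.6 and 60.7 to 229, respectively. WT Mb replicate 5 had the lowest midbrain sum, and TKO_Ex Fb replicate 4 and DKO_CD Fb replicate 2 had the lowest forebrain sums (129 and 136). In WT Mb replicate 5 the midbrain gene En1 was at 3.57 FPKM, against 31.98 to 59.0 in the 5 remaining libraries of its group, and Pax6, a gene strong in the Fb, was at 52.7, within the WT Fb range of 46.6 to 65.9. Pax6 was also high in WT Mb replicate 3 (45.9) and DKO_CD Mb replicate 1 (40.01), against 6.83 to 18.4 in the remaining 4 WT Mb libraries. Cdh6 was read as a check of the genotypes, although the deletions are too short to remove the mRNA. It was at 0.345 to 0.388 FPKM in 3 TKO_Ex Mb libraries and at 3.10 in the library labelled TKO_Ex replicate 3, within the WT Mb range of 1.04 to 3.55. The Fb library labelled TKO_Ex replicate 3 was also within the WT range (3.74 against 2.04 to 3.997), with the other TKO_Ex Fb libraries at 0.572 to 1.84, so that Cdh6 goes against the label of both replicate 3 libraries. In the TKO_Ex Mb, Cdh8 (0.851 to 2.32 FPKM) overlapped WT (1.14 to 10.1), and Cdh11 (14.5 to 16.6) lay below it (17.9 to 28.7). For the DKO groups, 12 files carry a heading that names the other group than their record does, and here the headings were followed. By headings, Cdh11 was at 17.1 to 18.7 FPKM in the DKO_Ex Fb, below the WT Fb range of 19.5 to 25.3. It overlapped that range in the DKO_CD Fb (12.7 to 25.3), but also in the TKO_Ex Fb (19.8 to 21.4). Cdh6 lay within the WT Mb range in the DKO_CD Mb (1.29 to 2.11) and the DKO_Ex Mb (1.86 to 3.12). Both were above the 3 low TKO_Ex Mb libraries. In the DKO_CD Fb Cdh6 was at 1.72 to 3.43, which overlapped both WT and TKO_Ex. The Mb levels of Cdh6 thus go against the label of DKO_CD that names Cdh6. Whether heading or record is right is not settled by these levels.

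In WT embryos the members spanned a wide range of levels. In the Fb, Vim was the highest at 198 ± 26.6 FPKM (SD, n = 6), followed by Sox2 (110 ± 9.60), Msi1 (93.3 ± 14.7), Sox3 (73.4 ± 13.6), Sox11 (48.4 ± 4.65) and Nes (41.9 ± 6.56). Prom1 (27.9 ± 4.77), Sox1 (26.1 ± 4.53), Fabp7 (15.8 ± 8.61) and Sox21 (12.7 ± 2.44) were lower. Across libraries only the range of Vim stood clear of the next gene in this order, and those of all other neighbours overlapped. Within a library the order was steadier. Sox2, Msi1, Sox3, Sox11, Nes and Sox1 were each above the next gene in 6 of 6 libraries. Prom1 was above Sox1 in 5 of 6, and Fabp7 above Sox21 in 3 of 6. In the Mb the order began with Vim (379 ± 60.3), Msi1 (148 ± 20.5), Sox2 (125 ± 7.40) and Sox3 (80.1 ± 11.9). Nes (71.8 ± 7.22) and Fabp7 (71.4 ± 7.48) overlapped, and both Sox21 (24.2 ± 5.15) and Sox1 (24.1 ± 3.31) stood last, with Sox11 (54.8 ± 3.24) and Prom1 (40.9 ± 2.90) between these pairs. Fabp7 thus moved from the ninth place in the Fb to the sixth in the Mb.

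**Figure D1:**
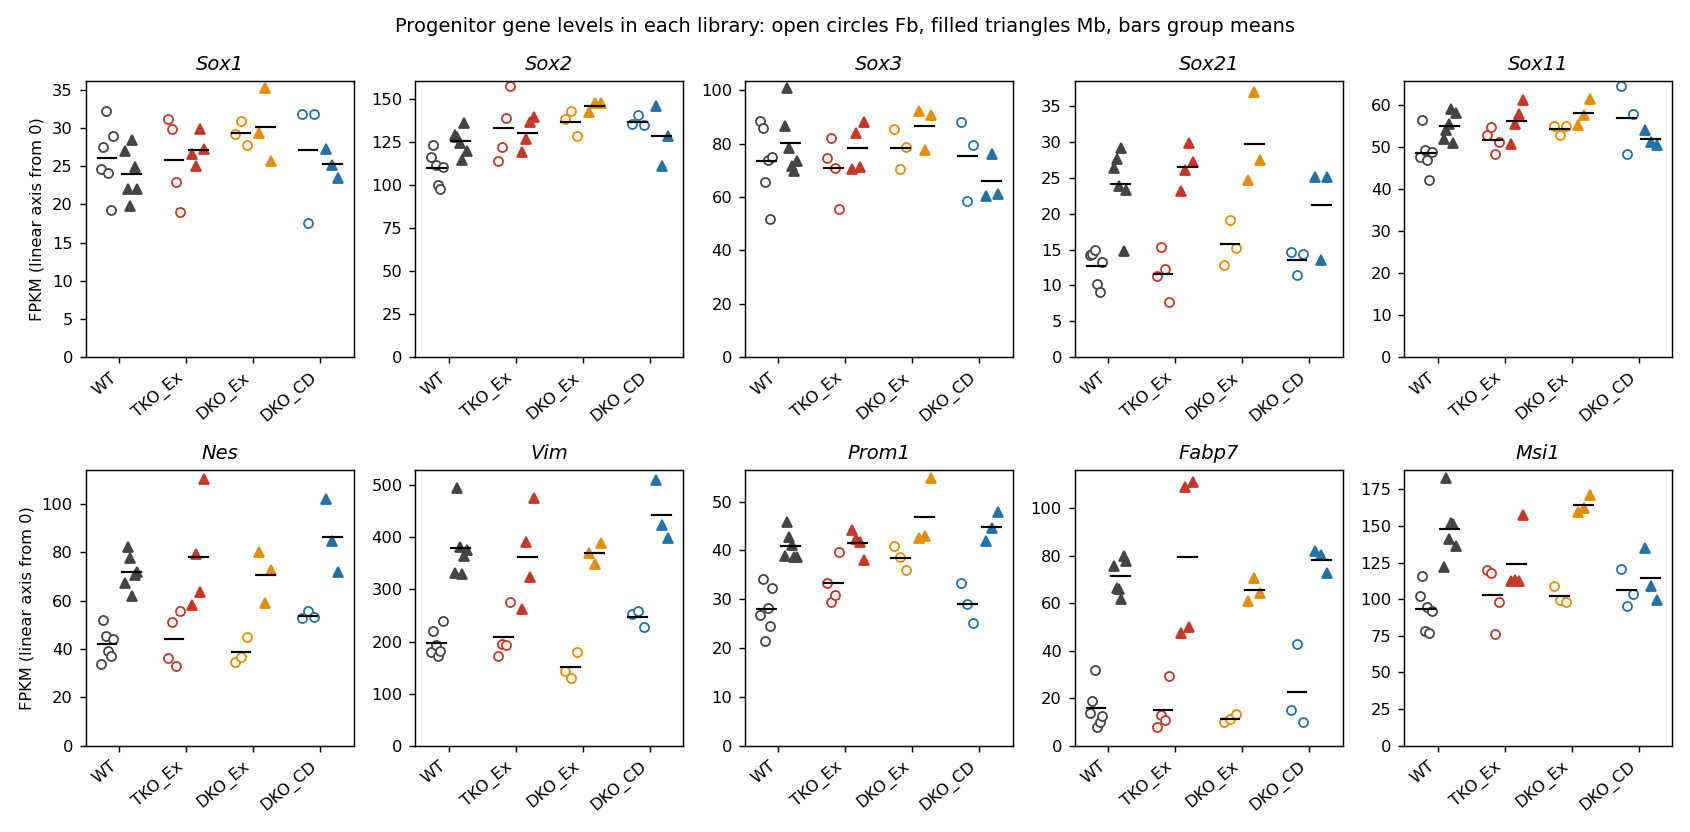
FPKM (linear axis from 0) of the 10 members in each of the 32 libraries by group, with open circles for the Fb, filled triangles for the Mb and bars for group means. Fabp7, Vim, Nes, Msi1 and Prom1 were higher in every WT Mb library than in any WT Fb library, whereas the tissues overlapped for Sox1, Sox2, Sox3, Sox21 and Sox11.

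The levels of the members in the Mb and Fb of WT embryos were compared first. Fabp7, Vim, Sox21, Nes, Msi1 and Prom1 were higher in the Mb, whereas no difference past the threshold was found for the SoxB1 genes and Sox11. The differences are given on the log2(FPKM + 1) scale, which understates those of low genes, with limma's adjusted p over all genes tested (Benjamini-Hochberg, threshold 0.05). Thus 6 of 10 members were called, all higher in the Mb, while 8.26% of the 13344 genes tested were called and 4.66% were called as higher. The median difference of the 10 members was 0.60, against 0.00 over all genes (-0.0033). In such bulk tissue, fewer cells of a type and less RNA per cell cannot be told apart.

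Fabp7 showed the widest difference. In the WT Fb it ranged from 7.99 to 31.8 FPKM with a median of 13.2, and in the WT Mb from 61.7 to 79.9 with a median of 71.2. Every Mb library was above every Fb library, and the difference was 2.23 ± 0.25 (SE, adjusted p = 5.2e-05, limma). Fabp7 was also uneven among WT Fb libraries, with a CV of 54.4%, larger than that of 97.7% of the 6569 genes at or above an average of 10 FPKM there. Its highest Fb value was in WT replicate 3. The part of a low number of fragments in this spread was not tested. In the WT Mb its CV was 10.48%, below the median of 15.3% over all such genes.

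Both filament genes were higher in the Mb. Vim ranged from 172 to 240 FPKM in the WT Fb (median 188) and from 330 to 494 in the WT Mb (median 369.5), without overlap. Its difference was 0.93 ± 0.11 (adjusted p = 8.4e-05, limma). Nes ranged from 33.8 to 51.9 FPKM (median 41.65) in the Fb and from 61.8 to 82.0 (median 71.1) in the Mb, again without overlap, and differed by 0.77 ± 0.11 (adjusted p = 0.00029, limma). The ratio of the means was 1.92 for Vim and 1.72 for Nes.

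Sox21, the SoxB2 gene, ranged from 9.14 to 15.0 FPKM in the WT Fb (median 13.7) and from 14.8 to 29.2 in the WT Mb (median 25.2). The ranges met in 1 library, since 5 of 6 Mb libraries were above all Fb libraries and WT Mb replicate 5 was at 14.8. This library also had the lowest sum of midbrain genes, 60.7 FPKM against 134 to 229 in the remaining ones, and the part of this in the Sox21 level was not tested. The difference was 0.87 ± 0.17 (adjusted p = 0.0042, limma), and leaving that Mb library out gave 1.002, the highest value among those with any WT library left out.

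Msi1 was at 77.1 to 116 FPKM in the WT Fb (median 93.2) and at 122 to 183 in the WT Mb (median 146), without overlap, and differed by 0.66 ± 0.11 (adjusted p = 0.0021, limma). Prom1 was at 21.4 to 34.2 FPKM (median 27.6) and at 38.6 to 45.8 (median 39.9), also without overlap, with a difference of 0.55 ± 0.11 (adjusted p = 0.0048, limma). In all, the WT libraries of 5 members did not overlap between the tissues, and 5.59% of all genes tested did not.

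For the SoxB1 genes and Sox11 the tissues differed by 0.19 or less, and none of these differences passed the test. Sox2 ranged from 97.6 to 123 FPKM in the WT Fb (median 111) and from 115 to 136 in the WT Mb (median 126), and 4 of 6 Mb libraries were above all Fb libraries. Its difference of 0.19 (95% interval 0.04 to 0.34) did not pass over all genes (adjusted p = 0.13, limma), although it did with quantile normalization (0.28, adjusted p = 0.017). The intervals were 0.02 to 0.34 for Sox11 (0.18), -0.15 to 0.42 for Sox3 (0.13) and -0.38 to 0.16 for Sox1 (-0.11). Sox11 and Sox2 were also the steadiest members in the WT Mb, each with a CV of 5.91%, and about 3% of the 6700 genes at or above an average of 10 FPKM there had a smaller one.

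Genes of other cell types moved with this comparison. Of the 11 early neuron genes tested 10 were higher in the WT Mb, with sums of 79.3 to 179 FPKM against 22.04 to 32.3 in the Fb. In contrast, 5 of 6 surface ectoderm genes and 5 of 9 cranial mesenchyme genes were lower in the Mb and 1 mesenchyme gene higher. Their sums were 25.1 to 39.6 FPKM in the WT Mb and 63.5 to 103 in the WT Fb for surface ectoderm, and 105 to 214 and 197 to 226 for mesenchyme. Of the neural crest genes 1 of 5 was lower, and of 8 endothelial and 6 primitive red cell genes none was called, with 1 and 0 at an unadjusted p under 0.05 (limma). In the WT Fb these 3 sums were 31.0 to 44.6, 88.4 to 136 and 2652 to 23520 FPKM, and in the WT Mb 24.2 to 40.6, 60.5 to 101 and 5218 to 23390. None of the markers of these lists was at 0 in all libraries of a group. The part of these cells in the levels of the members was not tested, and vimentin is also made by mesenchymal and endothelial cells.

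For the pair of members with the widest range over the 8 group means, the genes with the most similar profile were looked up among 6732 genes that averaged 10 FPKM or more over all libraries. The measure was the root-mean-square difference of the centred log2(FPKM + 1) group means, over 8 groups. Nearest to Fabp7 were Irx5 (0.20), a homeobox gene, Stmn2 (0.21), a microtubule regulator of neurons that is also on the early neuron list, and C130021I20Rik (0.22), an antisense RNA gene, against a median of 1.16 over these genes. Irx5 was at 5.79 ± 1.53 FPKM in the WT Fb and 29.2 ± 5.93 in the WT Mb (n = 6). Nearest to Vim were Tubb2a (0.09), Tspan18 (0.12) and Tubb2b (0.14), of which Tubb2a and Tubb2b encode beta-tubulins that share much of their sequence, against a median of 0.54. Tubb2b was at 119 ± 26.6 FPKM in the WT Fb and 241 ± 28.0 in the WT Mb (n = 6).

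Other progenitor genes parted into both directions. Of 26 such genes, 25 entered the test in WT embryos, 9 were higher in the Mb and 4 lower. The POU factors Pou3f1, Pou3f2, Pou3f3 and Pou3f4 were higher by 1.81, 1.75, 1.48 and 1.91, with adjusted p between 2.7e-07 and 0.00057 (limma). The Notch-linked repressors did not move as one. Hes3 was at 28.8 FPKM in the WT Mb and 0.695 in the WT Fb, a difference of 4.12 (adjusted p = 5.6e-07, limma), and Hes5 was higher by 1.87 (101 against 26.99 FPKM), whereas Hes1 was lower, at 23.9 against 52.3 FPKM (-1.14, adjusted p = 0.00022). Among the other Sox genes Sox13 was higher in the Mb by 0.82, and Sox9 (5.02 against 16.2 FPKM, -1.51) and Sox5 (1.38 against 6.94 FPKM, -1.70) were lower. Rfx4, a transcription factor of the neural tube, was higher by 2.01 and the cyclin gene Ccnd1 by 0.45, and the growth factor gene Mdk was lower by 0.24 (-0.24, adjusted p = 0.021). The median difference of the 25 genes was 0.16. In the mutants 9 of these genes were higher and 2 lower in the Mb of TKO_Ex, 8 were higher and 1 lower in that of DKO_Ex, and 2 were higher in that of DKO_CD (Hes3 by 3.80 and Pou3f3 by 1.14). Over all genes tested, 8.26% were called in WT, and 2.89%, 2.58% and 0.507% in TKO_Ex, DKO_Ex and DKO_CD (limma). The calls in TKO_Ex included Ptn, a growth factor gene (0.51, and 0.47 in WT, where its adjusted p was 0.13), and Gas1, which encodes a hedgehog co-receptor (-0.59, and -0.26 in WT, adjusted p = 0.13). The test of the difference between TKO_Ex and WT passed for neither (interactions of 0.03 and -0.33, adjusted p of 0.997 and 0.76, limma).

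**Figure D2:**
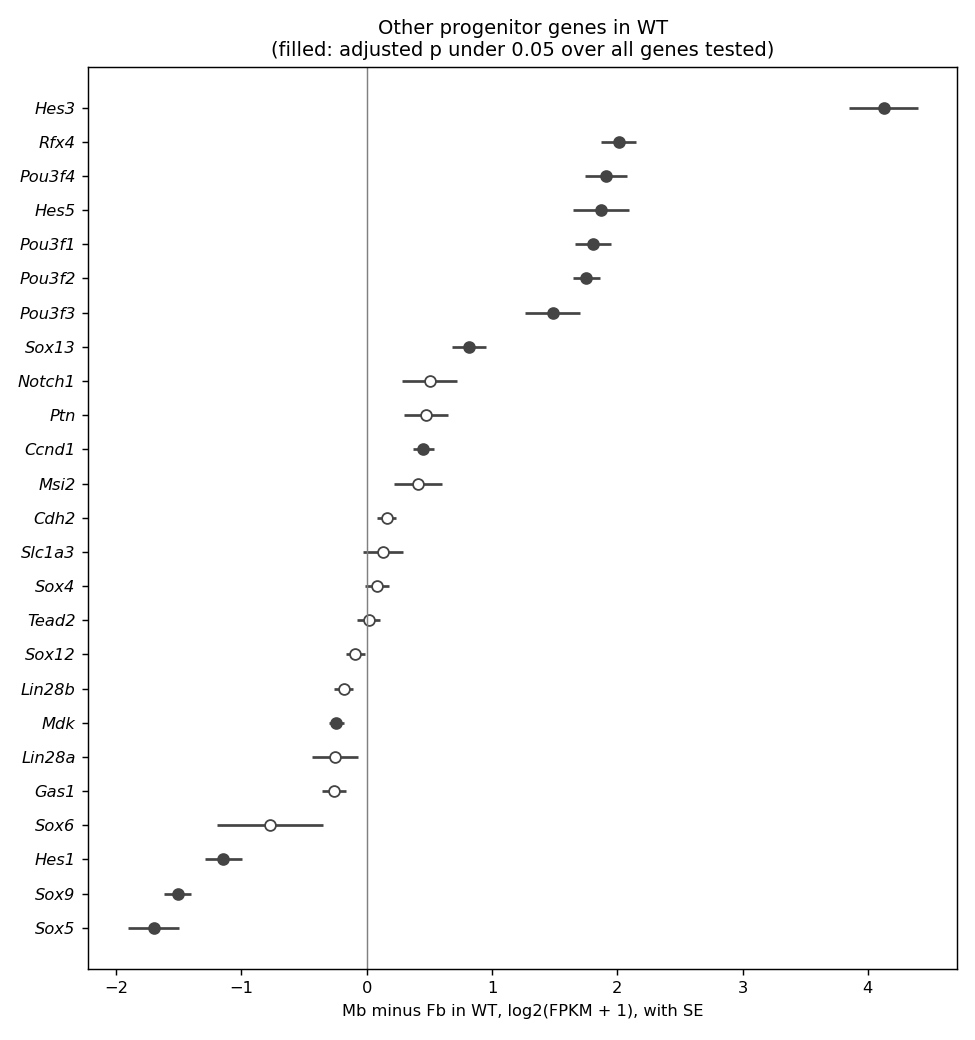
Mb minus Fb difference in WT on the log2(FPKM + 1) scale, with SE, for the 25 other progenitor genes tested, filled where limma's adjusted p was under 0.05. Hes3 lies at 4.12, the Pou3f genes between 1.48 and 1.91, and Sox5, Sox9 and Hes1 between -1.70 and -1.14.

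The same tissue comparison was made within each mutant group, where fewer libraries were available. All 6 genes that were higher in the WT Mb had a positive difference in each mutant group, and the difference of Fabp7 was at least 2.0 in all of them. In TKO_Ex 2 members were called (Sox21 and Fabp7), in DKO_Ex 4 (Nes, Vim, Fabp7 and Msi1) and in DKO_CD 1 (Vim), all higher in the Mb. Over all genes tested, 2.89%, 2.58% and 0.507% were called, and 1.54%, 1.66% and 0.224% as higher, respectively (limma). The tissues did not overlap for 3, 7 and 4 members, and for 8.94%, 20.5% and 15.6% of all genes. These counts moved with the libraries used: 0 members were called in TKO_Ex without both libraries of replicate 3 and 1 to 3 when 1 library was left out. In DKO_CD the call of Vim was lost with any of the 6 libraries left out (adjusted p 0.057 to 0.13, limma), and leaving out Fb replicate 2 gave 1 call, that of Fabp7, instead. With a block for Fb and Mb libraries that share a group and a number, which the labels do not tie to 1 embryo, Nes and Vim in TKO_Ex and Sox21 in DKO_Ex were called as well (adjusted p = 0.021, 0.015 and 0.037, limma), and the calls of Nes in DKO_Ex and Vim in DKO_CD were lost (0.070 and 0.055).

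Fabp7 in TKO_Ex had 7.74, 13.1, 10.7 and 29.3 FPKM (Fb) and 47.5, 109, 50.1 and 111 (Mb). The tissues did not overlap, although the Mb libraries fell into a lower and a higher pair, and the difference was 2.36 ± 0.42 (adjusted p = 0.019, limma). The call was lost without Fb replicate 2 or 3 or Mb replicate 2 or 4, where the difference was 2.17 to 2.35 (adjusted p 0.057 to 0.064), and it was 2.44 without both libraries of replicate 3 (adjusted p = 0.098). The DKO_Ex values were 9.97, 11.1 and 13.2 FPKM (Fb) and 61.0, 70.8 and 64.5 (Mb), with a difference of 2.42 ± 0.14 (adjusted p = 0.00043). The DKO_CD values were 15.0, 42.9 and 10.1 FPKM (Fb) and 82.2, 80.5 and 72.6 (Mb), a difference of 2.0 ± 0.46 that was not called (adjusted p = 0.17). The high Fb value belonged to replicate 2, and without it the difference was 2.58 (adjusted p = 0.0062, limma). That library had 216 FPKM of surface ectoderm genes against 99.5 and 80.8 in the other DKO_CD Fb libraries, 61.2 of early neuron genes against 31.3 and 40.8, and 136 of forebrain genes against 284 and 223. The high TKO_Ex Fb value, of replicate 4, also came with the highest surface ectoderm and early neuron sums of its group (233 and 57.5). Elsewhere a high ectoderm sum came without it. TKO_Ex Fb replicate 3 had a surface ectoderm sum of 173 FPKM with Fabp7 at 10.7, and DKO_Ex Fb replicate 2 had 171 with 11.1. In WT Fb replicate 3, where Fabp7 was at 31.8, the surface ectoderm and early neuron sums were 103 and 24.9. The part of these cells in the Fabp7 level was not tested.

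Vim in DKO_Ex had 143.5, 131 and 180 FPKM (Fb) and 369, 349 and 389 (Mb), which differed by 1.29 ± 0.13 (adjusted p = 0.0037, limma). In DKO_CD the values were 252.5, 258.5 and 228 FPKM (Fb) and 511, 423 and 398 (Mb), a difference of 0.84 ± 0.11 (adjusted p = 0.030). In TKO_Ex the ranges overlapped, at 173 to 277 and 263 to 475 FPKM, and the difference of 0.78 ± 0.20 was not called (adjusted p = 0.095). The highest Fb library and the highest Mb library were both replicate 4, and without the Fb library the difference was 0.92 (adjusted p = 0.049).

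Sox21 in TKO_Ex had 11.3, 15.35, 12.2 and 7.65 FPKM (Fb) and 23.2, 26.1, 29.9 and 27.3 (Mb), without overlap (1.16 ± 0.19, adjusted p = 0.012, limma). Without both libraries of replicate 3 it was 1.14 (adjusted p = 0.098). In DKO_Ex the tissues did not overlap either, at 12.9, 19.1 and 15.25 FPKM against 24.8, 37.1 and 27.6, yet the difference of 0.88 ± 0.20 missed the threshold (adjusted p = 0.084). In DKO_CD 2 Mb libraries were at 25.1 and 25.2 FPKM and replicate 2 was at 13.55, within the Fb values of 14.7, 11.5 and 14.3, so that the difference was 0.57 (95% interval -0.03 to 1.17). This Mb library also had the lowest sum of midbrain genes in its group, 94.9 FPKM against 149 and 209, and the part of this was not tested.

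Nes in DKO_Ex ranged over 34.4 to 44.8 FPKM (Fb) and 59.05 to 80.1 (Mb), without overlap (0.85 ± 0.15, adjusted p = 0.038, limma). Its call was lost with 5 of the 6 libraries left out in turn, all but Mb replicate 2 (adjusted p 0.050 to 0.14), with no filter on low values (0.075) and with no mean-variance trend (0.072). It differed by 0.80 in TKO_Ex and 0.65 in DKO_CD, both without overlap of the tissues and neither called (adjusted p 0.14 in both). Msi1 was higher in the DKO_Ex Mb by 0.68 ± 0.09 (adjusted p = 0.010), at 159, 162 and 171 FPKM against 109, 99.3 and 98.1, and by 0.70 without Mb replicate 1 (adjusted p = 0.0504). In TKO_Ex and DKO_CD, Msi1 overlapped between the tissues and differed by 0.27 and 0.10, with 95% intervals of -0.12 to 0.65 and -0.24 to 0.44. The latter was -0.02 without DKO_CD Mb replicate 1. Prom1 differed by 0.32, 0.27 and 0.61 in TKO_Ex, DKO_Ex and DKO_CD, none of them called. For the SoxB1 genes and Sox11 the differences lay between -0.18 and 0.16 in the mutant groups, and none was called.

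**Figure D3:**
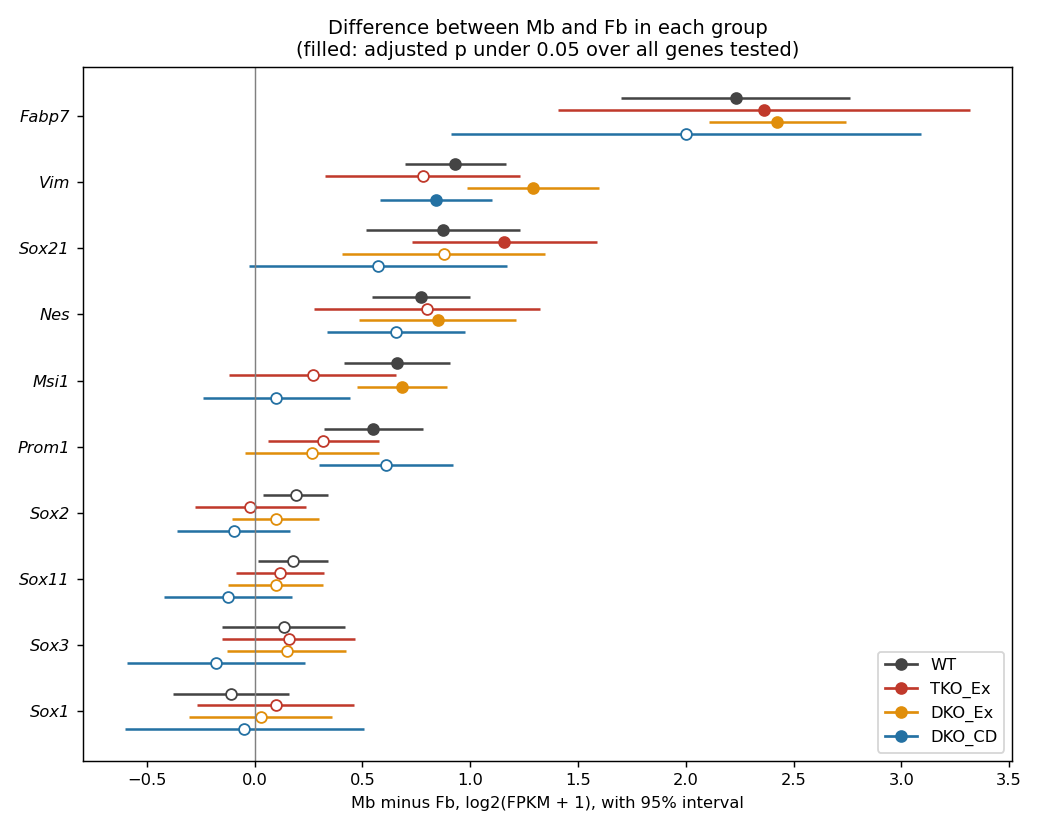
Mb minus Fb difference of the 10 members on the log2(FPKM + 1) scale with 95% intervals in WT, TKO_Ex, DKO_Ex and DKO_CD, filled where limma's adjusted p was under 0.05. Fabp7 lies between 2.0 and 2.42 in all 4 groups, and the SoxB1 genes and Sox11 lie between -0.18 and 0.19.

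Next, the tissues of each mutant group were set against those of WT, which asks whether the progenitor genes changed with the loss of the cadherins. In none of the 6 comparisons was a member called (limma, adjusted p over all genes). Called over all genes in TKO_Ex, DKO_Ex and DKO_CD were 0.0898%, 0.0903% and 0.0375% in the Mb, and 0.0603%, 0.0759% and 0.0378% in the Fb. At an unadjusted p under 0.05 there were 0, 1 and 1 members in the Mb of TKO_Ex, DKO_Ex and DKO_CD, and 1, 3 and 3 in the Fb. The shares of all genes at that level were 8.38%, 5.46% and 6.69% in the Mb and 8.66%, 7.01% and 8.44% in the Fb. The 95% intervals of all members lay between -0.74 and 0.76 in the Mb. In the Fb they lay between -0.68 and 0.78, except those of Fabp7, which reached from -1.08 to 1.41. The 3 mutant groups share the WT libraries of a tissue.

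**Figure D4:**
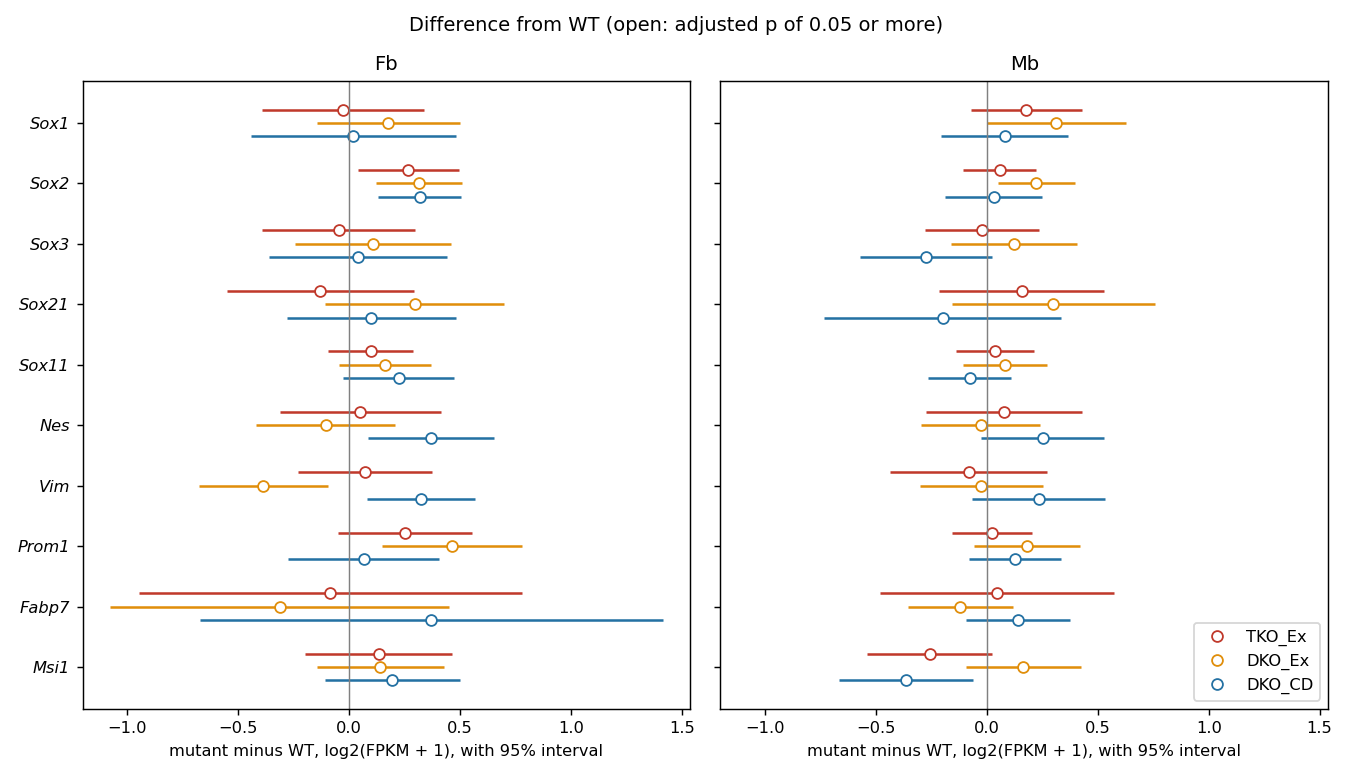
Mutant minus WT difference of the 10 members on the log2(FPKM + 1) scale with 95% intervals, Fb on the left and Mb on the right, all open because no adjusted p (limma) was under 0.05. Sox2 in the Fb lies at 0.27, 0.31 and 0.32 in TKO_Ex, DKO_Ex and DKO_CD, and the widest intervals are those of Fabp7 in the Fb.

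Sox2 was the member that deviated in most comparisons, without passing the test in any. In the Fb it was at 97.6 to 123 FPKM in WT (median 111), at 114, 122, 139 and 157 in TKO_Ex, at 138, 143 and 128 in DKO_Ex, and at 135, 140 and 135 in DKO_CD. All DKO_Ex and DKO_CD libraries and 2 of 4 TKO_Ex libraries were above every WT Fb library. The differences were 0.27 ± 0.10, 0.31 ± 0.09 and 0.32 ± 0.08, with unadjusted p of 0.025, 0.0049 and 0.0034 and adjusted p of 0.50, 0.38 and 0.40 (limma). In the Mb all 3 DKO_Ex libraries (142, 148 and 148 FPKM) were above the WT range of 115 to 136, a difference of 0.22 ± 0.08 (unadjusted p = 0.017, adjusted p = 0.83). Sums of genes of other cells were read in the same Fb groups, although no gene of these lists was called against WT (limma). The cranial mesenchyme sums, 143 to 180 FPKM in TKO_Ex and 148 to 166 in DKO_Ex, were all below the WT Fb sums of 197 to 226. Those of DKO_CD overlapped WT (104 to 217). The surface ectoderm sums were 93.6 to 233 FPKM in TKO_Ex, 82.5 to 171 in DKO_Ex and 80.8 to 216 in DKO_CD. All these groups overlapped WT, at 63.5 to 103. The part of these cells in the Sox2 level was not tested. Sox2 in the TKO_Ex and DKO_CD Mb differed by 0.06 and 0.03, with libraries on both sides of the WT median. Together with Prom1 (DKO_Ex) and Nes (DKO_CD) in the Fb, this made 2 members without overlap with WT in the DKO_Ex Fb, 2 in the DKO_CD Fb and 1 in the DKO_Ex Mb, where 3.7%, 4.22% and 3% of all genes did not overlap. No member was apart from WT in the Fb or Mb of TKO_Ex or the Mb of DKO_CD, where 2.23%, 1.74% and 3.38% of all genes were.

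Among the filament genes, Vim in the Fb deviated from WT in opposite directions in the DKO groups, and both groups overlapped WT. It was at 131 to 180 FPKM in DKO_Ex, where 2 of 3 libraries were below all WT Fb libraries, and at 228 to 259 in DKO_CD, where 2 of 3 were above all of them. The differences were -0.39 ± 0.13 and 0.32 ± 0.11, with adjusted p of 0.54 and 0.48 (limma). Nes in the DKO_CD Fb was at 52.7, 55.7 and 53.2 FPKM, all above the WT Fb range of 33.8 to 51.9 (0.37 ± 0.13, adjusted p = 0.49). In DKO_Ex the mesenchyme sum of the Fb, 148 to 166 FPKM, was below the WT range of 197 to 226, and in DKO_CD it was 104 to 217. The sum of 104, in DKO_CD Fb replicate 2, came with the highest Vim of its group (258.5). In the TKO_Ex Fb the sum was also below WT (143 to 180), while Vim averaged 210 FPKM against 198 in WT. The part of mesenchyme in the Vim level was not tested. The DKO values trade places when the DKO libraries are grouped by their records instead of their headings.

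Prom1 in the DKO_Ex Fb was at 40.9, 38.6 and 35.9 FPKM, all above the WT Fb range of 21.4 to 34.2, a difference of 0.46 ± 0.14 (unadjusted p = 0.0085, adjusted p = 0.46, limma). Msi1 in the DKO_CD Mb was at 135, 109 and 99.5 FPKM, and 2 of 3 libraries were below the WT Mb range of 122 to 183 (-0.37 ± 0.14, unadjusted p = 0.022, adjusted p = 0.68). The mesenchyme sums of these 3 libraries were, in the same order, 210, 277 and 188 FPKM, against 105 to 214 in the WT Mb. The lowest Msi1 thus came with the lowest sum. In the WT Mb replicate 2 had both the highest sum (214) and the highest Msi1 (183). The part of mesenchyme in the Msi1 level was not tested. In the TKO_Ex Mb 3 libraries at 112 to 113 FPKM were also below the WT Mb range of Msi1, and replicate 4 was at 157 (-0.26, 95% interval -0.54 to 0.02). Sox1, on the chromosome of Cdh8 and Cdh11 but far from both, was at 29.4, 35.3 and 25.7 FPKM in the DKO_Ex Mb. Against 19.8 to 28.5 in WT, it differed by 0.31 (95% interval 0.00 to 0.63, that is from -0.0004, unadjusted p = 0.050, adjusted p = 0.90, limma). Its other differences from WT lay between -0.03 and 0.18. Sox21 differed from WT by -0.20 to 0.30, Sox3 by -0.27 to 0.12 and Sox11 by -0.08 to 0.22, and none of their groups stood apart from WT.

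Of the other progenitor genes none was called against WT in any of the 6 comparisons (limma), of 24 or 25 tested. At an unadjusted p under 0.05 there were 4, 3 and 4 in the Mb of TKO_Ex, DKO_Ex and DKO_CD and 5, 2 and 2 in the Fb. The shares of all genes at that level, for this list and those below, were 8.38%, 5.46% and 6.69% in the Mb. In the Fb they were 8.66%, 7.01% and 8.44%. Median differences of the other progenitor genes lay between 0.01 and 0.17 and those of the members between 0.04 and 0.21, beside -0.01 to 0.04 over all genes. In the DKO_CD Fb all 10 members had a difference above 0, with a median of 0.21 against 0.04 over all genes. So did 21 of 24 other progenitor genes (median 0.17) and 9 of 9 early neuron genes (median 0.68), but only 2 of 9 cranial mesenchyme genes (median -0.25). All were measured in the same libraries, so that genes of a list are not separate results. The early neuron list had no call against WT either, with 1, 0 and 0 genes at an unadjusted p under 0.05 in the Mb and 1, 0 and 4 in the Fb. The cranial mesenchyme list, also without a call, had 1, 0 and 6 of 9 genes at that level in the Mb and 6, 5 and 1 of 9 in the Fb. The surface ectoderm list had none called, with 0, 0 and 2 of 5 genes in the Mb and 4 of 8, 1 of 7 and 2 of 8 in the Fb.

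Finally, the difference from WT in the Mb was set against that in the Fb for each mutant group, as an interaction of tissue and group. No member was called (limma, adjusted p of 0.79 or more), and over all genes 0.0149%, 0% and 0.00746% were called in TKO_Ex, DKO_Ex and DKO_CD. At an unadjusted p under 0.05 there were 0, 0 and 3 members, respectively, while 6.50%, 3.88% and 4.83% of all genes did. The 3 in DKO_CD were Msi1 (-0.56 ± 0.20, unadjusted p = 0.012), Sox2 (-0.29 ± 0.12, unadjusted p = 0.033) and Sox11 (-0.30 ± 0.13, unadjusted p = 0.037), all with an adjusted p of 0.99. For these 3 genes the DKO_CD difference from WT was above 0 in the Fb (0.19, 0.32 and 0.22). In the Mb it was -0.37 for Msi1, 0.03 for Sox2 and -0.08 for Sox11. In the same interaction all 9 cranial mesenchyme genes lay above 0 (median 0.92, 6 at an unadjusted p under 0.05) and all 11 early neuron genes below 0 (median -0.69, 2 at that level), none of them called, and their part in the members' values was not tested. The largest positive interaction in DKO_Ex was that of Vim (0.36, 95% interval -0.03 to 0.75).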

How the data were processed

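Fb and Mb RNA of E9.5 embryos was sequenced in 32 directional libraries. Per the study's methods the authors used TopHat2 for the alignment (GRCm38) and Cufflinks for the deposited FPKM per gene, a unit already normalized to gene length and mapped fragments. Versions and annotation are not given in the sources used here. HTSeq counts, which the authors tested with DESeq2, were not used here. The FPKM of 65 repeated identifiers were summed, and 48218 of 48576 identifiers were found in GENCODE M21. Tubb3 and Foxc2 were not analysed here.

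Depth was estimated from whole multiples of the smallest step among 771 single-transcript genes of at least 4000 bp, and 77.2% to 84.9% of their low values lay within 0.1 fragments of one. The FPKM files give no counts, so no counting intervals are printed. The test was limma 3.58.1 (R 4.3.3, trended eBayes) on log2(FPKM + 1), over genes averaging at least 1 FPKM in the libraries of the fit, with Benjamini-Hochberg adjustment over all of them and a threshold of 0.05. Each mutant group was fitted with WT of its tissue alone, and the interaction with WT of both tissues. The script was tested on simulated data, with changes larger than any difference of a member from WT given here. That test does not show whether such small differences would be found. The labels do not say that libraries come from separate embryos, so that p-values measure the spread between these libraries.

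Groups follow the labels and, in the 12 DKO files where heading and record differ, the headings. All members are named, with the 3 nearest genes in profile for the 2 members of widest range, and the other progenitor genes that were called. Members, gene lists (other progenitor genes, early neurons, cranial mesenchyme, neural crest, surface ectoderm, endothelium, primitive red cells, forebrain, midbrain and isthmus) and motifs were chosen with earlier results of these data known. Alternatives were pseudocounts of 0.1 and 5, no filter, at least 1 FPKM in every library, median-of-ratios scaling, quantile normalization, no trend, all 4 groups in one fit, a replicate block, the DKO grouping by record and leaving out each library. Leaving out both tissues of TKO_Ex replicate 3 or of WT replicate 5 was added after seeing the data.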

Additional observations from a re-analysis of the deposited data

Results flagged for a closer look

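Among the groups of 4 or 6 libraries, 40 combinations of a member and a group were checked for a library far from the others, and 2 were found, which is as many as a chance of 1 in 20 gives. Vim in WT Mb replicate 2 was at 493.8 FPKM, and the nearest library of the group was at 381.8. Msi1 in TKO_Ex Mb replicate 4 was at 157.3 FPKM, with the nearest library at 112.8. Without this library the difference of Msi1 from WT in the TKO_Ex Mb was not called either. No difference between tissues in the effect of a mutant group was called for a member (limma).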

How the results depend on the processing

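The 6 calls of WT Mb against Fb were made under every alternative, with 7 calls under quantile normalization (Sox2 added) and 6 to 6 when 1 library was left out. Against WT, and for the interactions, 0 to 0 members were called in each alternative and with any library left out. The tissue comparisons in mutants moved more. With the replicate block there were 4 calls in TKO_Ex and 0 in DKO_CD, and Sox21 replaced Nes in DKO_Ex. Without both TKO_Ex replicate 3 libraries there were 0. In DKO_CD there were 0 calls with no filter and 0 without the trend. With the DKO libraries grouped by record DKO_Ex had 1 call and DKO_CD 4, since the groups trade places, which also reversed Vim in the Fb (0.32 in DKO_Ex, -0.39 in DKO_CD), Nes in the DKO_CD Fb (-0.11), Msi1 in the DKO_CD Mb (0.16) and its interaction (0.0217). Leaving out 1 library gave 1 to 3 calls in TKO_Ex, 2 to 4 in DKO_Ex and 0 to 1 in DKO_CD, and a difference of -0.02 to 0.20 (-0.0246 to 0.195) for Msi1 in DKO_CD. In DKO_Ex the 2 came without Mb replicate 1, and in TKO_Ex the 1 came without Fb replicate 2 or 3 or Mb replicate 2 or 4. The cause was not tested.

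Same-numbered Fb and Mb libraries had correlated deviations of 0.008 to 0.14 over 16 pairs (4 over 0.1), and 14 of 16 Fb libraries correlated best with their own number. For comparison, same-numbered mutant and WT libraries of a tissue, which are not 1 embryo, had -0.086 to 0.049 over 20 pairs. Xist, which parts the sexes, was over 10 FPKM in both or in neither library in 16 of 16 pairs (69.8 FPKM or more against 1.04 or less), and Cdh6 was within the WT range in both tissues of TKO_Ex replicate 3. Xist was low in WT replicates 1 to 3, TKO_Ex replicate 4, DKO_Ex replicate 1 and DKO_CD replicates 1 and 2. The WT numbers thus followed Xist, so that WT pairs could agree on it without being 1 embryo. The sexes were not balanced between groups. The part of sex in the levels was not tested, and Sox3 lies on the X chromosome. The correlations, Xist and Cdh6 are hints from the data that a number may mark 1 embryo. The labels do not say so, and the fits without the block were kept as designed. If a number does mark 1 embryo, these fits wrongly take its Fb and Mb libraries as independent. The calls that the block changes are therefore given with them. Of the Sox genes, Sox21 rested on the fewest fragments (61 to 435 per library).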
